A study of Danio rerio with 40 samples.

Results

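The miR-193 and miR-365 family of zebrafish sperm was taken as every entry of the miRNA table that carries the name miR-193 or miR-365, which gave 5 of the 346 mature miRNAs: miR-193a-5p, miR-193a-3p, miR-193b-5p, miR-193b-3p and miR-365. A miRNA gene is transcribed as a hairpin, and the 2 sides of its stem give a 5p and a 3p product, of which the more abundant is often the one kept in the silencing complex. The mature strand pairs through its seed with messenger RNAs and lowers their translation or stability. The miR-193 and miR-365 genes lie beside each other in vertebrate genomes, and in mice the miR-193b and miR-365 pair is known from work on brown fat, while miR-193 is known in human cells mainly as a brake on cell growth. In the RefSeq annotation of GRCz12tu the 6 zebrafish genes formed 3 pairs, namely mir193a-1 with mir-365-2, mir193b with mir365-1, and mir193a-2 with mir-365-3, and 0 other genes started between the members of each pair. The 3 miR-365 genes have 1 entry in the table, as have the 2 miR-193a genes for each arm, so reads from the separate copies cannot be told apart.

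Sperm came from AB wild-type zebrafish males, each of which passed through a High treatment (2 males kept with 1 female) and a Low treatment (1 male with 2 females) of 2 weeks each, in random order. The groups were High2 (second period, males that had been in Low first), High1 (first period), Low2 (second period, males that had been in High first) and Low1 (first period), with 10, 10, 9 and 10 libraries. High2 and Low1 were thus samples of one set of males and High1 and Low2 of the other, so that the treatment, the period and the set of males cannot be separated in any single comparison. Each sample was whole sperm of 1 male, in which fewer cells and less RNA per cell cannot be told apart. Total miRNA reads were 948655 to 6071817 for High2, 742784 to 5600401 for High1, 133035 to 5303390 for Low2 and 79435 to 8447142 for Low1. In all, 4 libraries had fewer than 500000 reads (Low2_2, Low2_3, Low1_1 and Low1_3), and 1 read stood for 36.8 normalised reads in Low1_1 and 12.4 in Low2_3. The column of High1_10 may belong to another sample, since the supplement of the study heads a pair of columns with that name. Sample names begin with Ha, Hb, La or Lb, read here as High1, Low2, Low1 and High2. The treatment in the public record differs from this reading in 22 of the 39 libraries. Most of these are Hb libraries recorded as High2 or Lb libraries recorded as Low2. The groups here follow the sample names, and which reading is right was not tested. Values are normalised reads, which are the reads divided by the size factor of the library. Levels of different miRNAs were compared without a correction for length, because mature miRNAs differ little in length. How evenly the library preparation and the exact matching captured each sequence was not tested. Orders and shares of different miRNAs or arms are therefore those of reads, and not of molecules in sperm.

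All 5 miRNAs were rare in sperm. Together they took 0.00261% to 0.0399% of the miRNA reads of a library, with a median of 0.00541%. The miRNA reads of a library are the sum over all 346 entries. A read that fits more than 1 entry may be counted for each, which would make these shares too low. Summed over all libraries, miR-193b-5p had 3273 reads, miR-193a-5p 2016, miR-365 836, miR-193b-3p 481 and miR-193a-3p 27. By summed reads these were ranks 158, 176, 206, 223 and 304 among the 346 miRNAs. The order of the first pair came from few libraries, since miR-193b-5p had more reads than miR-193a-5p in 19 libraries and fewer in 20, and the sums were 2134 and 1970 without Low2_6, Low2_7, High1_7 and High1_8. MiR-193a-5p and miR-193b-5p had reads in all 39 libraries, miR-193b-3p in 37, miR-365 in 36 and miR-193a-3p in 12. The libraries at 0 reads for miR-193b-3p were Low1_1 and Low1_3, which were also at 0 for miR-365, together with High1_8 for miR-365. The 5p arms of both hairpins were thus seen throughout, and the 3p arm of miR-193a was close to the limit of these libraries. In a library at 0, a level of up to 3 reads is allowed, which corresponded to 0.703 to 110.4 normalised reads in the libraries at 0 for miR-193a-3p, 33.0 and 110.4 in those for miR-193b-3p and 10.2 to 110.4 in those for miR-365.

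MiR-193a-5p varied least among the 4 miRNAs with reads in most libraries. It had a lowest value of 23.0, a median of 35.0 and a highest of 55.2 normalised reads in High2, and 14.7, 41.6 and 52.5 in High1. In Low2 the lowest, median and highest values were 12.5, 32.7 and 86.9, and in Low1 15.3, 37.8 and 71.3. The ranges of the 4 groups overlapped almost throughout, and the order of the medians (High1, Low1, High2, Low2) separated no neighbours beyond the spread of the libraries. The highest value, in Low2_3, rested on 7 reads. The other arm, miR-193a-3p, reached 6 reads at most, in High2_1, and its median was 0 in every group.

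MiR-193b-5p varied most. In High2 the lowest value was 10.6, the median 35.8 and the highest 103 normalised reads, and in High1 they were 9.01, 48.2 and 899. In Low2 they were 25.5, 52.5 and 956, and in Low1 19.4, 33.3 and 143. The medians were therefore close while the maxima of High1 and Low2 stood far above the others. This came from 4 libraries, Low2_7 with 956 normalised reads (163 reads), High1_8 with 899 (265 reads), Low2_6 with 590 (474 reads) and High1_7 with 333 (237 reads). The other 35 libraries had a median of 34.4 and reached 187 at most, in Low2_2, one of the shallow libraries. The mean was 39.3 ± 25.2 (SD, n = 10) for High2, 164 ± 276 (SD, n = 10) for High1, 221 ± 330 (SD, n = 9) for Low2 and 50.2 ± 42.2 (SD, n = 10) for Low1, so the SD was larger than the mean in the groups that held these libraries. Without them the mean was 51.0 ± 44.0 (SD, n = 8) in High1 and 62.7 ± 56.6 (SD, n = 7) in Low2.

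**Figure D1:**
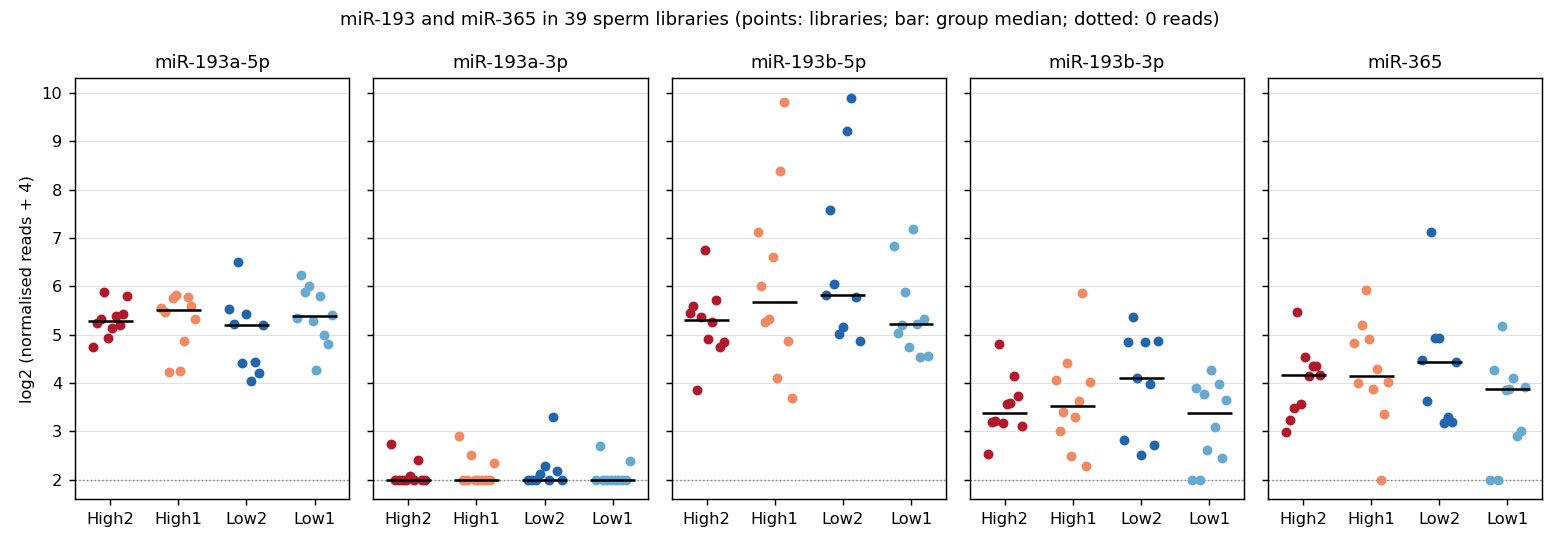
Each point is 1 library, placed by group along the x axis and by log2 (normalised reads + 4) on the y axis, with a bar at the group median and a dotted line at the value of 0 reads. MiR-193b-5p has 2 libraries of High1 and 2 of Low2 far above the rest, the highest at 956 normalised reads, while miR-193a-3p sits at 0 reads in most libraries.

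The 3p partner of miR-193b-5p and the neighbouring miR-365 did not stand apart from all other libraries in the same way. MiR-193b-3p had 11.7 normalised reads in Low2_7 (2 reads), 54.3 in High1_8 (16 reads), 24.9 in Low2_6 (20 reads) and 8.43 in High1_7 (6 reads). The median of the other 35 libraries was 6.55. All 4 values were above that median, and High1_8 alone exceeded the highest of the other 35 libraries, 37.2. MiR-365 had 5.87 normalised reads in Low2_7 (1 read), 0 in High1_8 (0 reads), 4.98 in Low2_6 (4 reads) and 15.4 in High1_7 (11 reads). The median of the other 35 libraries was 13.3. At so few reads these miR-365 values are imprecise, above all in Low2_7 and High1_8. MiR-193a-5p had 17.6, 50.9, 12.5 and 25.3 normalised reads in the same order of libraries (3, 15, 10 and 18 reads), against a median of 36.8 in the other 35. Neither miR-365 nor miR-193a-5p was at its highest in any of them.

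These libraries all carried the label of sequencing pool 5 in the sample descriptions, a pool of 3 High2, 2 High1, 2 Low2 and 1 Low1 libraries. The other 4 libraries of that pool (High2_7, High2_9, High2_10 and Low1_7) had 23.0 to 34.3 normalised reads of miR-193b-5p, near the median of the series. These 4 were samples of males that had been in Low first, while the 4 high libraries were all of males that had been in High first. Within pool 5 the difference of mean log2 values of miR-193b-5p was -4.60 for High2 against Low2, and in pools 1 to 4 it was 0.40, -0.53, 0.23 and -1.78. For High1 against Low1 it was 3.88 in pool 5, against 0.30, 1.94, -1.54 and -0.59 in pools 1 to 4, and for High2 against High1 it was -4.15 in pool 5, against 0.87, -1.62, 0.03 and -0.43. For Low2 against Low1 it was 4.33 in pool 5, against 0.77, 0.85, -1.74 and 0.75. In these 4 comparisons the difference was largest in pool 5, where the groups have only 1 to 3 libraries each, and the signs in the other pools were mixed. It was not largest there for High1 against Low2, at -0.45 in pool 5 against -0.47, 1.09, 0.20 and -1.35 in pools 1 to 4, nor for High2 against Low1, at -0.27 in pool 5 against 1.17, 0.33, -1.51 and -1.03. Whether the pool had a part in the values was not tested. A contrast of the sets of males is given below, where it cannot be told apart from a treatment effect that differs by period. The alternative with the pool as a covariate compared the groups and did not test the pool.

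**Figure D2:**
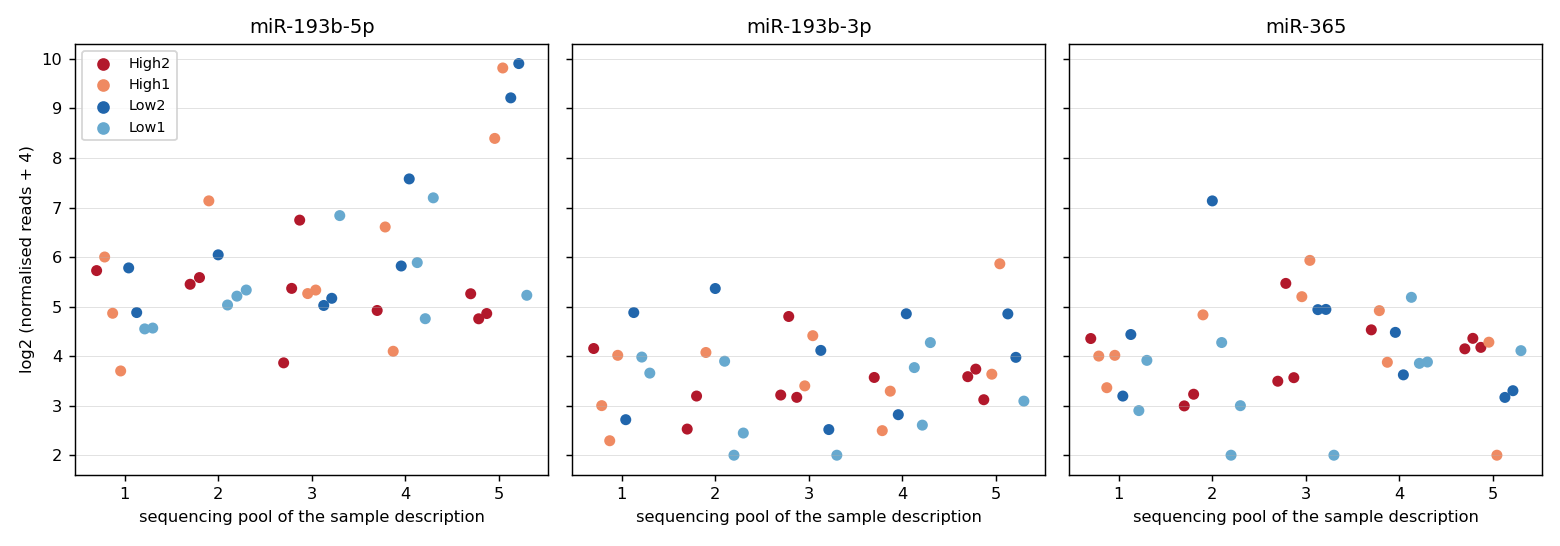
The y axis gives log2 (normalised reads + 4) of miR-193b-5p, miR-193b-3p and miR-365 in each library, the x axis the sequencing pool of the sample description, and colours the 4 groups. The 4 highest miR-193b-5p values, from 333 to 956 normalised reads, are all in pool 5, next to 4 libraries of 23.0 to 34.3, and miR-365 has no such high values there.

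Other miRNAs were high in the same libraries. Of the 6 further miRNAs that the study names beside miR-193b-5p, a set chosen on these samples and so no independent evidence, miR-10b-5p, miR-129-5p, miR-184, miR-181a-5-3p and miR-183-5p each had their 4 highest values in Low2_6, Low2_7, High1_7 and High1_8. MiR-10b-5p, a miRNA of the Hox clusters, had 55414 to 139181 normalised reads in them and at most 14796 in the other 35 libraries. MiR-183-5p, from a cluster known for its expression in sensory cells, had 14217 to 50150 in them and at most 2916 in the others. MiR-200a-5p, from an epithelial family, had 190 to 1398 normalised reads in them, all above the median of the other 35 libraries, 58.8. Of the 4, only Low2_6 exceeded the highest of the others, 1039. The summed level of 6 blood miRNAs, 4 muscle miRNAs, 1 of liver, 5 of epithelium, 2 of neural tissue and 2 of gonad was in 0 of the 4 libraries above the highest of the other 35, for every list. The epithelium list, for instance, summed to 9364 to 12664 normalised reads in the 4 libraries and 9490 to 40682 in the others. The blood list summed to 400.2 to 699 and 248 to 2760. Against the medians of the other 35 libraries the lists differed. The muscle list was above its median of 491 in all 4 libraries, at 510 to 933. The liver, epithelium, neural and gonad lists were below their medians in all 4, and the blood list lay on both sides of its median of 441. No miRNA of these lists was at 0 throughout. The part of other cell types in the values was not tested further.

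The 5p arm gave most of the reads of both hairpins. Its share ranged less between libraries for miR-193a than for miR-193b, but miR-193a-3p had 0 reads in 27 of 39 libraries. For miR-193a, 98.7% of the reads of the hairpin came from the 5p arm (2016 of 2043 reads, 95% Wilson interval 98.1% to 99.1%), and the 5p arm was higher in 39 of 39 libraries. The share was 98.6% for High2, 98.2% for High1, 98.6% for Low2 and 99.0% for Low1. For miR-193b the share was 87.2% (3273 of 3754 reads, interval 86.1% to 88.2%), and the 5p arm was higher in 37 libraries, equal in Low2_9 (49 reads each) and lower in High1_10 (17 of 40 reads, 42.5%, interval 28.5% to 57.8%). The group shares were 83.9% for High2, 90.0% for High1, 89.0% for Low2 and 84.9% for Low1. Without its 2 libraries of high miR-193b-5p each, the share was 82.5% for High1 and 79.0% for Low2, which turned the order of the groups. These libraries were picked for high miR-193b-5p, which the share counts, so the lower shares without them are no separate result. Intervals treat the reads as independent draws and leave out the spread between libraries. For miR-193b the share of single libraries ran from 42.5% in High1_10 to 100% in Low1_1 and Low1_3, the latter on 3 reads each. For miR-193a it ran from 75.0% in Low2_7, on 4 reads, to 100% in the libraries where the 3p arm was at 0. The reads carry no molecular identifiers, so copies of 1 molecule count as separate reads.

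Among single libraries the 5p share of miR-193b reached 98.8% in Low2_7 (interval 95.7% to 99.7%), 97.5% in High1_7 (94.7% to 98.9%), 96.0% in Low2_6 (93.8% to 97.4%) and 94.3% in High1_8 (91.0% to 96.5%). Shares as high were also found where miR-193b-5p was not high, for example 96.2% in Low1_9 (90.5% to 98.5%) and 95.7% in High2_1 (89.6% to 98.3%). As the difference of log2 values, 5p minus 3p of miR-193b averaged 1.75 ± 0.97 for High2, 2.47 ± 1.64 for High1, 2.59 ± 1.87 for Low2 and 2.29 ± 1.26 for Low1 (SD over libraries). The corresponding means of miR-193a were 3.19 ± 0.54, 3.09 ± 0.59, 2.79 ± 1.01 and 3.30 ± 0.54, values that are held down by the added 4 because the 3p arm was mostly at 0.

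**Figure D3:**
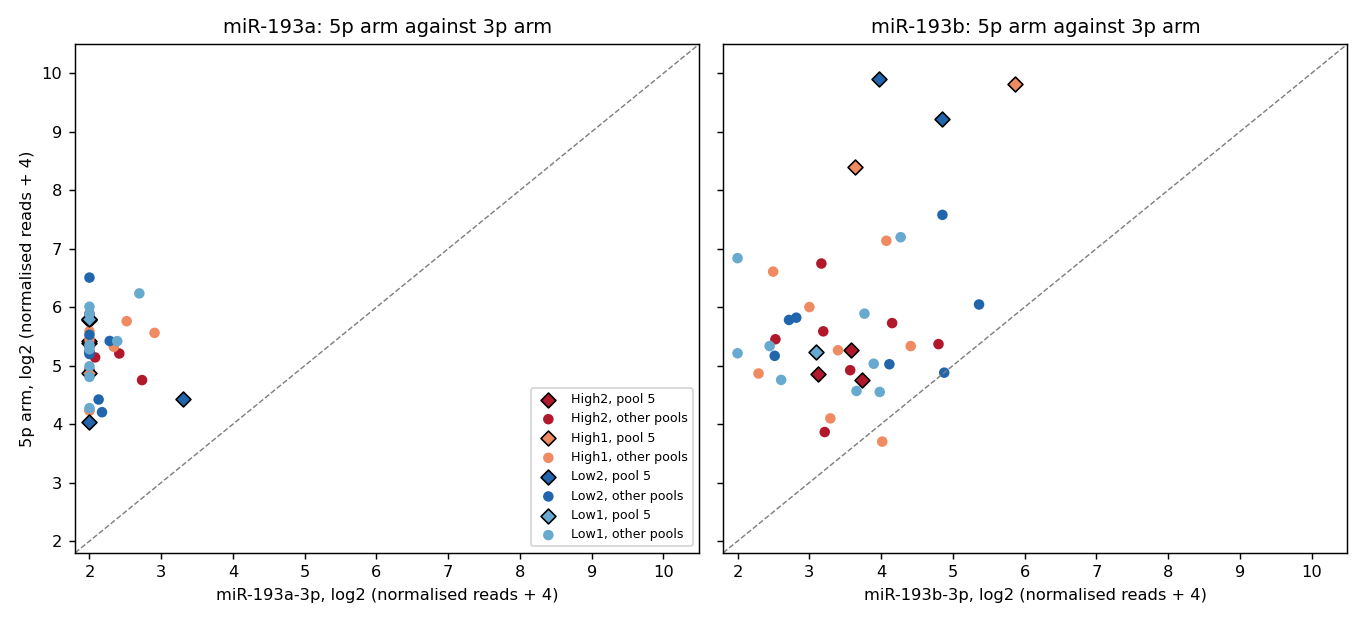
Log2 (normalised reads + 4) of the 5p arm on the y axis against the 3p arm on the x axis, for miR-193a and miR-193b, with 1 point per library, colours for groups, diamonds for pool 5 and a dashed line where both arms are equal. For miR-193b, 37 of 39 libraries lie above the line and 4 libraries of pool 5 lie highest. Of these, only High1_8 lies to the right of all other libraries.

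Neither arm balance passed the test between groups. In limma, over the 99 hairpins with both arms in the table, the balance of miR-193b differed by -0.84 between High2 and Low2 (standard error 0.65, 95% confidence interval -2.16 to 0.47, limma adjusted p = 0.790) and by 0.30 between Low2 and Low1 (standard error 0.65, interval -1.01 to 1.62, limma adjusted p = 0.782). For High2 against Low2 the value was 0.00 without pool 5, and for Low2 against Low1 it was -0.44. Leaving out pool 5 removed Low2_6 and Low2_7, the highest balances of Low2, so a lower mean of Low2 was bound to follow. The balance of miR-193a differed most between Low2 and Low1, by -0.51 (standard error 0.32, interval -1.15 to 0.13, limma adjusted p = 0.479). The 2 hairpins were 0 of the hairpins called in each comparison, where 1 of the 99 (1.01%) was called in Low2 against Low1 and 0 in the other comparisons (0.0%), with 1 to 11 hairpins at an unadjusted p under 0.05. The limma-voom model was not run on arm balances.

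The clustered miR-365 had more reads than miR-193b-3p and fewer than both 5p arms. It exceeded miR-193b-3p in 29 of 39 libraries, was lower in 7 and equal in 3, with 836 against 481 reads in all. In High2 it was the higher of the pair in 10 of 10 libraries, in High1 in 8 of 10, in Low2 in 5 of 9 and in Low1 in 6 of 10. It was below miR-193a-5p in 35 of 39 libraries and below miR-193b-5p in 35 of 39. In normalised reads, miR-365 had a lowest value of 3.97, a median of 13.9 and a highest of 40.3 in High2, and 0, 13.8 and 57.1 in High1. In Low2 the values were 4.98, 17.7 and 137, and in Low1 0, 10.6 and 32.4. The groups overlapped, and the highest value, in Low2_3, rested on 11 reads in a library of 133035.

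MiR-193b-3p had a lowest value of 1.77, a median of 6.58 and a highest of 23.9 normalised reads in High2, and 0.899, 7.49 and 54.3 in High1. In Low2 the values were 1.73, 13.3 and 37.2, and in Low1 0, 6.57 and 15.3. These ranges overlapped too, with Low2 having the highest median. The log2 difference of miR-365 and miR-193b-3p averaged 0.53 ± 0.32 for High2, 0.59 ± 1.71 for High1, 0.35 ± 1.44 for Low2 and 0.34 ± 0.77 for Low1 (SD over libraries). The 6 differences between groups ran from -0.07 to 0.25, each smaller than the spread of the libraries, and none passed the test (two-sided permutation tests, exact where Low2 was compared, lowest p = 0.50, adjusted over the 6 comparisons 0.990). These values moved with the libraries above. Without pool 5 the difference was 0.88 in High1 against Low1 (exact permutation test, p = 0.0319, adjusted p = 0.0958) and -0.71 in High2 against High1 (exact permutation test, p = 0.0314, adjusted p = 0.0958). Without Low2_6, Low2_7, High1_7 and High1_8 it was 0.80 (exact permutation test, p = 0.0403, adjusted p = 0.121) and -0.62 (exact permutation test, p = 0.0328, adjusted p = 0.121), and with the record labels it was -0.51 in High2 against Low1 (exact permutation test, p = 0.276, adjusted p = 0.913). The SD was lowest in High2, a difference in spread that was not tested.

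Between the groups, none of the 5 miRNAs passed an adjusted p of 0.05 in limma, and the same was true of the whole table, with 0 of 346 called in each of the 6 comparisons (0.0%). Unadjusted p-values under 0.05 were found for 20 miRNAs in High2 against Low1 (5.78%), 14 in High2 against Low2 (4.05%), 11 in High1 against Low1 (3.18%), 3 in High1 against Low2 (0.867%), 22 in High2 against High1 (6.36%) and 22 in Low2 against Low1 (6.36%). By limma-voom on the recovered reads the numbers were 12, 17, 11, 1, 18 and 2, with 0 called after adjustment. Of the 5 miRNAs, 1 was among those 14 in High2 against Low2 (miR-193b-5p, lower in High2, as were 2.6% of all miRNAs), 1 among those 22 in Low2 against Low1 (miR-193b-3p, higher in Low2, as were 4.62% of all miRNAs) and 0 in the other comparisons.

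In High2 against Low2 the log2 fold change of miR-193b-5p was -1.35 (standard error 0.64, 95% confidence interval -2.65 to -0.04, unadjusted p = 0.0431, limma adjusted p = 0.983), which ranked it 11 of 346 by p. Leaving out pool 5 gave -0.38 and leaving out Low2_6, Low2_7, High1_7 and High1_8 gave -0.50. Each removed Low2_6 and Low2_7, the highest miR-193b-5p values of Low2, so a smaller difference was bound to follow. With the groups of the public record the sign turned, at 0.83. Across all settings the value ran from -1.56 to 0.83, and with the pool as a covariate the limma adjusted p was 0.309. MiR-193b-3p differed by -0.50 (standard error 0.41, limma adjusted p = 0.983), miR-365 by -0.33 (standard error 0.47, limma adjusted p = 0.986) and miR-193a-5p by 0.31 (standard error 0.30, limma adjusted p = 0.986). The fold change was above 0 for 1 of the 5 miRNAs and below 0 for 4, and its median was -0.33, while it was above 0 for 186 and below 0 for 160 of all 346 miRNAs, where the median was 0.01. The 4 below 0 include miR-193a-3p at -0.09, with only 10 reads over all High2 libraries and 4 over all Low2 libraries. Without the 4 libraries of fewer than 500000 reads, the value was -0.19 for miR-193b-3p and -0.03 for miR-365. Across all settings the value of miR-193b-3p ran from -0.57 to -0.19 and that of miR-365 from -0.73 to -0.03.

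In Low2 against Low1, which differ in the period and the males at a common treatment, the log2 fold change was 1.14 for miR-193b-5p (standard error 0.64, interval -0.16 to 2.45, limma adjusted p = 0.630), 0.84 for miR-193b-3p (standard error 0.41, interval 0.01 to 1.66, unadjusted p = 0.0466, limma adjusted p = 0.577) and 0.85 for miR-365 (standard error 0.47, interval -0.10 to 1.79, limma adjusted p = 0.621). MiR-193a-5p, at -0.41 (standard error 0.30, limma adjusted p = 0.706), had the opposite sign. The value of miR-193b-5p was 0.27 without pool 5 and 0.30 without the 4 libraries above. Each removed the highest miR-193b-5p values of Low2, so a lower mean of Low2 was bound to follow. Across all settings the value of miR-193b-3p ran from 0.23 to 1.24 and that of miR-365 from 0.18 to 1.23, with no limma adjusted p below 0.518. The lowest of each, 0.23 and 0.18, came with libraries of at least 500000 reads. That setting leaves out Low1_1 and Low1_3, both at 0 for this pair, Low2_3, which held the highest value of miR-365 and 37.2 normalised reads of miR-193b-3p, and Low2_2, with 24.9 normalised reads of miR-193b-3p. Of the 5 miRNAs 4 were higher in Low2, with a median of 0.84, against 201 of all 346 and a median of 0.05. The 4 include miR-193a-3p at 0.10, with only 4 reads over all Low2 libraries and 7 over all Low1 libraries.

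For miR-193b-5p the other comparisons gave smaller values or values that turned on the same libraries. MiR-193b-5p differed by -0.21 in High2 against Low1, the 2 samples of the Low-first males (standard error 0.63, limma adjusted p = 0.979). It differed by 0.66 in High1 against Low1 (standard error 0.63, limma adjusted p = 0.833), by -0.48 in High1 against Low2 (standard error 0.64, limma adjusted p = 0.993) and by -0.87 in High2 against High1 (standard error 0.63, limma adjusted p = 0.808). Without pool 5 the value for High1 against Low1 was -0.11 and for High2 against High1 0.00. Pool 5 held the highest miR-193b-5p values of High1, so a lower mean of High1 was bound to follow. The log2 fold changes of the other 4 miRNAs lay between -0.10 and 0.52 in High2 against Low1, between -0.14 and 0.73 in High1 against Low1, between -0.36 and 0.27 in High1 against Low2 and between -0.21 and 0.05 in High2 against High1, with no limma adjusted p below 0.774. The highest of these, 0.73 in High1 against Low1, belonged to miR-365. Across all settings it ran from 0.35 with libraries of at least 500000 reads to 1.07 without pool 5, with no limma adjusted p below 0.692. In High2 against Low1 the value of miR-365 was 0.14 with libraries of at least 500000 reads, against 0.52 with all libraries. Across all settings it ran from -0.11 to 0.89.

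**Figure D4:**
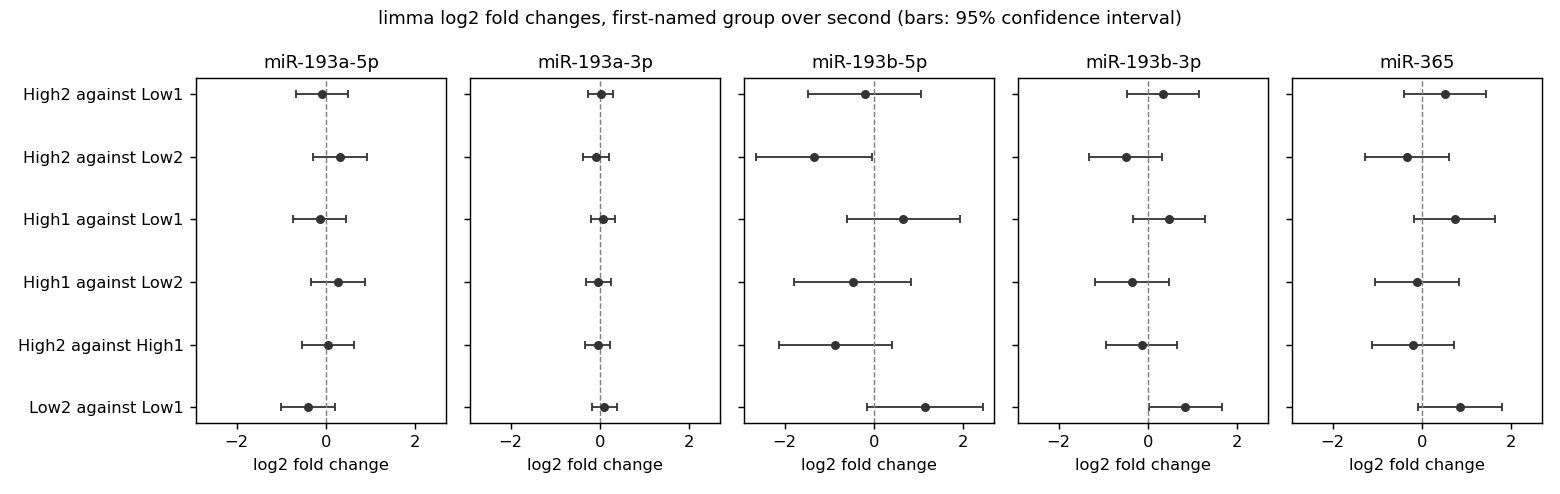
Log2 fold changes of the 5 miRNAs on the x axis for the 6 comparisons on the y axis, the first group named over the second, with 95% confidence intervals from limma. Apart from miR-193b-5p in High2 against Low2 (-1.35) and miR-193b-3p in Low2 against Low1 (0.84), every interval includes 0, and neither of these passed after adjustment.

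The 4 groups also allowed 2 contrasts of contrasts, neither of which isolates a cause. The log2 fold change of High2 against Low2 minus that of High1 against Low1 equals the Low-first males minus the High-first males over both periods, so a treatment effect that differs by period and a difference between the sets of males cannot be told apart. The 2 samples of a male lie on the same side of this contrast and were fitted as separate libraries, which can make its p-values too small. For miR-193b-5p the contrast was -2.01 (limma unadjusted p = 0.0313, adjusted p = 0.511). It was -0.42 without Low2_6, Low2_7, High1_7 and High1_8 and -0.27 without pool 5. Each removed the highest miR-193b-5p values of the High-first males, so a smaller difference was bound to follow. For miR-365 the contrast was -1.06 (limma adjusted p = 0.573) and for miR-193b-3p -0.98 (limma adjusted p = 0.573). These became -0.39 and -0.37 with libraries of at least 500000 reads, while for miR-365 it was -1.80 without pool 5. For miR-193a-5p it was 0.45 (limma adjusted p = 0.698), and no value passed the threshold. The log2 fold change of High2 against Low1 minus that of High1 against Low2 equals the second period minus the first, so an effect of the order of treatments and one of the period cannot be told apart. It was 0.27 for miR-193b-5p, 0.70 for miR-193b-3p and 0.64 for miR-365, with limma adjusted p-values of 0.960, 0.822 and 0.880. With libraries of at least 500000 reads it was 0.090 for miR-193b-3p and -0.035 for miR-365. Without pool 5 it was 0.86 for miR-193b-3p and 0.66 for miR-365.

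Over the 39 libraries the values of the members had low to moderate correlations with each other. Counting noise weakens rho at few reads, and the median was 10 reads a library for miR-193b-3p and 18 for miR-365. Low values therefore do not show that the members varied apart. Spearman's rho, given as a description because the libraries share males and differ in depth, was 0.20 between miR-193b-5p and miR-193b-3p, the arms of 1 hairpin, and -0.08 between miR-193b-5p and miR-365. It was 0.31 between miR-193b-3p and miR-365, 0.34 between miR-193a-5p and miR-365 and -0.07 between miR-193a-5p and miR-193b-5p. Without Low2_6, Low2_7, High1_7 and High1_8 the rho of miR-193b-3p and miR-365 was 0.51, the fourth highest that miR-193b-3p had with any miRNA, but with the libraries of at least 500000 reads it was 0.18. Among the 285 miRNAs with reads in 20 or more libraries, the closest to miR-193b-5p were miR-125b-2-3p (0.70), miR-181a-2-3p (0.69) and miR-125b-1-3p (0.65), which are 3p arms of miR-125 and miR-181 hairpins. Closest to miR-193b-3p were miR-129-3p (0.62), miR-455-3p (0.50) and miR-129-3-3p (0.50). Closest to miR-365 were miR-221-3p (0.57), miR-23b (0.52) and miR-199-3p (0.51), and to miR-193a-5p miR-23b-5p (0.52), miR-733 (0.48) and miR-22b-5p (0.43). The lists of the members shared no miRNA, and the arm partner of miR-193b-5p ranked 47 of 284 in its list.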

How the data were processed

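Small RNA libraries of sperm were trimmed by the authors and matched exactly, by PatMaN, to the miRBase mature sequences of zebrafish, and the reads of each miRNA were counted. The deposited table holds log2 values, read here as log2 of (reads divided by a size factor, plus 4), since the lowest is 2 and, after the transform is undone, 100.0% of the low values are whole multiples (within 0.05) of 1 read per library. The labels and methods name DESeq2 for the normalisation, and the making of the log2 values is not given in the sources used here. Of the 40 samples, 39 have a column, and the remaining Low2 sample is not analysed here. The piRNA table was not used.

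Groups were fitted together with limma 3.58.1 in R 4.3.3 (lmFit, eBayes with a trend) on the deposited values, with group as the only factor, two-sided p-values and Benjamini-Hochberg adjustment over the 346 miRNAs (or 99 arm balances) of a comparison, at a threshold of 0.05. The added 4 makes fold changes of rare miRNAs smaller than the ratio of their reads. P-values measure the spread between libraries, and where groups share males, that sharing was not modelled. The script was tested on simulated data. Changes were put only into miRNAs with a higher mean than every member but miR-193b-5p, so the power for rarer miRNAs was not tested. Permutation tests (SciPy 1.17.1) used 100000 resamples, or all arrangements where Low2 was compared. Named are the 5 members, the 3 miRNAs most like each member with reads in at least 20 libraries, and 6 miRNAs named by the study; miRNAs outside this rule are said to be so. The members, lists and libraries left out were chosen with earlier results of these data known. Alternatives were limma without the trend, median centring, the lowest 25% left out, only the 2 groups, a replicate block, the public record's treatment labels, the pool as a covariate, libraries of at least 500000 reads, libraries or pool 5 left out, a pseudocount of 1 and limma-voom on the recovered reads. Same-numbered samples of a line had mean correlations of their deviations of -0.09 (High2 and Low1, 10 pairs) and 0.09 (High1 and Low2, 9 pairs). Single pairs ran from -0.37 to 0.27 and from -0.36 to 0.80. The highest was that of High1_7 and Low2_7, which are both among the 4 libraries of high miR-193b-5p. In view of the means the numbers were not taken as pairs, and whether single pairs come from 1 male was not tested.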

Additional observations from a re-analysis of the deposited data

Results flagged for a closer look

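In all, 3 values stood apart from their group by Dixon's criterion, among 32 sets of a measure and a group (5 miRNAs, the arm differences of both hairpins, and the difference of miR-365 and miR-193b-3p, in 4 groups each). Chance alone sets apart about 1 in 20 sets that are independent and normally distributed. The sets here are not, since miR-193a-3p was mostly at 0 and the differences reuse values of the miRNAs, so that rate is only a rough guide. MiR-365 in Low2_3, at 137 normalised reads from 11 reads, was separated from the next Low2 library by 0.552 of the range of its group. The log2 difference of miR-365 and miR-193b-3p in High1_8, where miR-365 had 0 reads and miR-193b-3p 16, was -3.86 and lay apart by 0.615 of the range. MiR-193a-3p in Low2_7 had 1 read, worth 5.87 normalised reads in that library, and lay apart by 0.784 of the range. The high miR-193b-5p values of High1 and Low2 were not set apart in this way, because each of these groups holds 2 of them.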

How the results depend on the processing

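The 5 miRNAs gave 0 calls in every comparison and alternative, with 0.309 as the smallest limma adjusted p (miR-193b-5p, High2 against Low2, pool as a covariate), and the difference of miR-365 and miR-193b-3p gave 0. Over all miRNAs the count was 0 except in High2 against High1, with 9 called when only these groups were fitted and 10 with libraries of at least 500000 reads, all outside the naming rule and of the miR-430 family. The 9 were called in both settings and had the same log2 fold change, 0.74, and the same adjusted p within a setting. They are therefore not separate results. The 1 arm balance called in Low2 against Low1 (miR-25, named after its value was seen, -1.27, limma adjusted p = 0.0217) became 0 with only the 2 groups, with the record labels, with libraries of at least 500000 reads, without pool 5 and without Low2_6, Low2_7, High1_7 and High1_8. Of 166 values of single miRNAs or arm balances under alternatives, 151 kept their direction and 15 turned, none of them called. With the record labels miR-193b-5p was 1.26 in High2 against Low1, 0.83 in High2 against Low2, 0.59 in High1 against Low2 and 0.23 in High2 against High1, miR-193a-5p was -0.43 in High2 against Low2, and 5p minus 3p of miR-193b was 1.24 in High2 against Low2 and -0.38 in Low2 against Low1. Without pool 5, miR-193b-5p was -0.11 in High1 against Low1 and 0.0048 in High2 against High1, miR-193a-5p was -0.0018 in High2 against Low2, and 5p minus 3p of miR-193b was 0.0013 in High2 against Low2 and -0.44 in Low2 against Low1. Without Low2_6, Low2_7, High1_7 and High1_8, miR-193b-5p was -0.084 in High1 against Low1 and 5p minus 3p of miR-193b was -0.43 in Low2 against Low1, where a pseudocount of 1 gave -0.056. Leaving out High1_10, miR-193b-5p was -0.21 in High1 against Low2 and 0.93 in High1 against Low1. The causes were not tested.

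With the replicate number as a block, miR-193b-5p was -0.21 in both High2 against Low1 and High1 against Low2 (limma adjusted p = 0.983 and 0.999), 0 miRNAs and 0 arm balances were called, and 17 and 18 miRNAs had an unadjusted p under 0.05. In High1 against Low2 the count was 3 without the block. The reads were few, with a median of 10 reads a library for miR-193b-3p and 18 for miR-365. Leaving out each of the 39 libraries in turn was not run, as every group has 9 or more.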
